A study of Mus musculus with 576 samples.

Results

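The cells described here are 213 resting mesenchymal cells of the embryonic dorsal pancreas, from a Nkx2.5 and a Nkx3.2 lineage line, out of 576 single cells in the whole series, and they were chosen by their measured levels of 4 genes. The series holds Smart-seq2 libraries, a plate-based method with 1 library per sorted cell and no molecular identifiers, from mouse embryos at embryonic day 12.5. GFP+ cells were sorted from the dorsal pancreas of 3 mouse lines, each filling 2 plates of 96 wells. In Nkx2.5-Cre;R26mTmG embryos (plates 6A and 6B) and Nkx3.2-Cre;R26mTmG embryos (plates 7A and 7B) a Cre allele targeted to the driver gene switches the R26 mTmG reporter to GFP, so that GFP marks cells that expressed the driver and all their descendants, whether or not the gene is still on. Both lines share the reporter allele, the stage, the tissue, the C57BL/6J background and the sort gate, and the embryos were not sexed. The remaining line, Prox1-GFP, is used below for a side-by-side level only. The labels name no embryo, animal or litter. Each line is therefore 1 sample, cells and plates are not replicates, and no test between the lines was run. Intervals are exact, at 95%, and cover counting error only. Those on CPM take each read as independent, though PCR copies are counted and cells differ, so they are too narrow.

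A cell was kept with at least 1000 genes above 0 and at least 100000 counts, and all but 19 wells of the Nkx2.5 line and 1 well of the Nkx3.2 line met this. Levels are counts scaled to a total of 1000000 (CPM). Resting mesenchymal cells were those below 20 CPM of Epcam (epithelial adhesion molecule), below 20 CPM of Upk3b (a mesothelial uroplakin), at 100 CPM or more of Vim (vimentin, the intermediate filament of mesenchymal cells) and below 50 CPM of Top2a (topoisomerase of dividing cells). The gate took 60.1% of the passing Nkx2.5 cells (exact binomial interval 52.4 to 67.5%) and 57.1% of the passing Nkx3.2 cells (49.7 to 64.2%). By plate it took 59 cells of 6A, 45 of 6B, 58 of 7A and 51 of 7B. The limits cut the lines unequally. Among passing cells 28 of the Nkx2.5 line and 11 of the Nkx3.2 line failed on Vim, and 0 and 7 on Epcam. On Upk3b 4 and 22 failed, 19 of them in plate 7B, and a cell could fail several limits. The highest Epcam value among the cells was 1.12 CPM, and no cell that met the other conditions lay above that limit. For Upk3b the nearest cells lay at 1.36 CPM inside and 39.4 CPM outside, for Vim at 107.2 CPM inside and 99.2 CPM outside, and for Top2a at 44.3 CPM inside and 56.2 CPM outside. These genes chose the cells, so their levels are a description. Over all cells of a line, Vim stood at 481 CPM with the Nkx2.5 driver and at 826 CPM with the Nkx3.2 driver.

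The mesenchyme around the pancreatic bud lays down matrix and sends growth factors that keep the epithelial progenitors dividing. Nkx2-5 and Nkx3-2 are homeobox transcription factors of the splanchnic mesoderm: Nkx3-2 is known from the mesenchyme of stomach, pancreas and spleen, and Nkx2-5 from the heart and from the mesenchyme shared by spleen and pancreas. Resting here means a low level of Top2a alone, which does not exclude cells in DNA replication. With cells classed as S-phase also left out, 41 Nkx2.5 and 53 Nkx3.2 cells remained. Most cells called resting in each line were thus classed as S-phase, by a rule that is not described here.

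The cells' identity was described with lists of marker genes. The mesenchymal, epithelial and mesothelial lists include Vim, Epcam and Upk3b, which chose the cells, so the levels of these genes are no check. Of 9 mesenchymal markers none was at 0, and their summed level ran from 5183 to 5472 CPM in the Nkx2.5 plates and from 5576 to 6176 CPM in the Nkx3.2 plates. Igf1, named beside Vim as a marker of these cells, was found in 51.9% of Nkx2.5 cells and 22.9% of Nkx3.2 cells, so it did not mark all of them. Of 8 epithelial markers 6 were below 1 CPM in both lines, and Pdx1, Cldn6 and Spink1 were at 0. The list summed to 7.65 to 27.1 CPM in the Nkx2.5 plates and 23.6 to 29.2 CPM in the Nkx3.2 plates, almost all of it from Krt18, a keratin at 0 and 15.8 CPM over the lines, and Sox9, a factor of pancreatic progenitors and of cartilage at 18.2 and 9.95 CPM. Of 8 endothelial markers 5 were below 1 CPM, with Cdh5 and Cldn5 at 0, and the list summed to 41.96 to 67.8 CPM and 43.002 to 72.2 CPM, most of it from Pecam1, an endothelial adhesion molecule that had a count in all 213 cells, at 41.8 and 45.3 CPM over the lines. Of 8 immune markers 5 were below 1 CPM, with Fcer1g, Tyrobp, C1qa and C1qb at 0, and the list summed to 46.2 to 47.8 CPM and 32.8 to 43.7 CPM. The 8 mesothelial markers summed to 163.2 to 187.8 CPM and 157.4 to 191.2 CPM, with Gpm6a at 0, and the 8 mural markers to 943 to 990 CPM and 1148 to 1205 CPM, with Myh11 alone below 1 CPM. The 8 erythroid markers summed to 1.46 to 5.64 CPM in the Nkx2.5 plates and 15.6 to 18.4 CPM in the Nkx3.2 plates, and the 10 neural crest and neuronal markers to 1.47 to 6.57 CPM and 15.9 to 19.99 CPM, with Foxd3 and Ret at 0. Their part in the differences below was not tested.

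The lines also differed as libraries. Median depth was 1054830.5 counts in the Nkx2.5 cells and 890120 in the Nkx3.2 cells, yet the Nkx2.5 cells had fewer genes above 0, with medians of 5788 against 7202. After each cell was thinned to 100000 counts the plate medians were 4649 genes in 6A, 3873 in 6B, 5617 in 7A and 5893 in 7B. At least 10 counts over the Y-linked genes Ddx3y, Eif2s3y, Kdm5d and Uty were found in 86.5% of Nkx2.5 cells and 4.59% of Nkx3.2 cells, so the lineage and the sex of the embryos sampled cannot be told apart. Transcript base composition moved with the contrast as well: the median log2 ratio of the tested genes, Nkx2.5 over Nkx3.2, went from 0.22 in the lowest of 10 equal bins of GC content to -0.38 in the highest, over 518 genes in each. The part of these features in the ratios was not tested, and some values that bear on them are given beside the results.

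**Figure D1:**
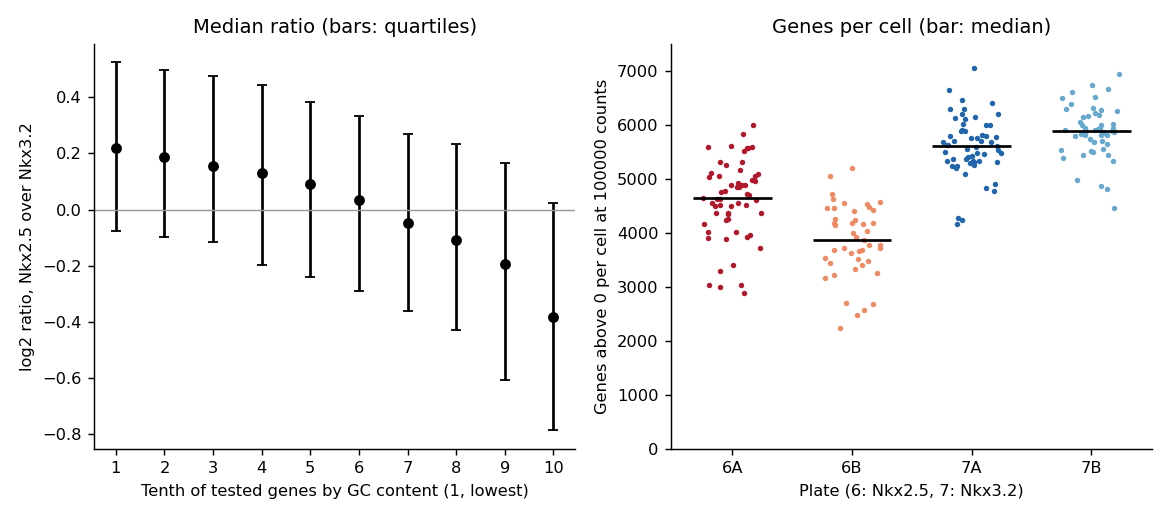
Left, median log2 ratio of CPM between the lines (points) with quartiles (bars) in 10 equal bins of the 5178 tested genes by GC content of the longest transcript; right, genes above 0 in each resting cell after thinning to 100000 counts, by plate, with the median as a bar. The median ratio went down from 0.22 to -0.38 with GC content, and the Nkx2.5 plates had medians of 4649 and 3873 genes against 5617 and 5893 in the Nkx3.2 plates.

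The central question was which genes set the resting mesenchyme of the Nkx2.5 lineage apart from that of the Nkx3.2 lineage. The counts of all cells of a line were summed, and a gene was called where the lines differed at least 2-fold, the higher line reached 50 CPM, and all 4 plate pairs (6A and 6B, each with 7A and 7B) went the same way. Of 5178 genes tested, 377 were called (7.28%), of which 202 were higher in the Nkx3.2 line (3.9% of those tested) and the rest higher in the Nkx2.5 line (3.38%). All 4 plate pairs went the same way, at any size, for 58.6% of the tested genes. These values chose the genes named below, so no test goes with them, and the count called in each gene list below is to be read beside that 7.28%. Requiring all plate pairs to agree removed 1 gene in the Nkx2.5 direction and 0 in the Nkx3.2 direction. The median log2 ratio over all tested genes was 0.03, and 24 called genes reached 4-fold, 10 and 14 in the respective directions. Between the plates of a line, 317 genes were at least 2-fold apart in the Nkx2.5 line (4.21% of those tested higher in 6A and 1.91% in 6B) and 45 in the Nkx3.2 line (0.425% higher in 7A and 0.444% in 7B). Without plate 6A, 352 genes were called higher in the Nkx2.5 line and 436 in the Nkx3.2 line, and without plate 7A 237 and 313, each with 2 plate pairs left to agree. Without plate 6B 58.9% and 63.4% of the genes called were called again, and with ratios centred within the GC bins 69.1% and 62.9% were.

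**Figure D2:**
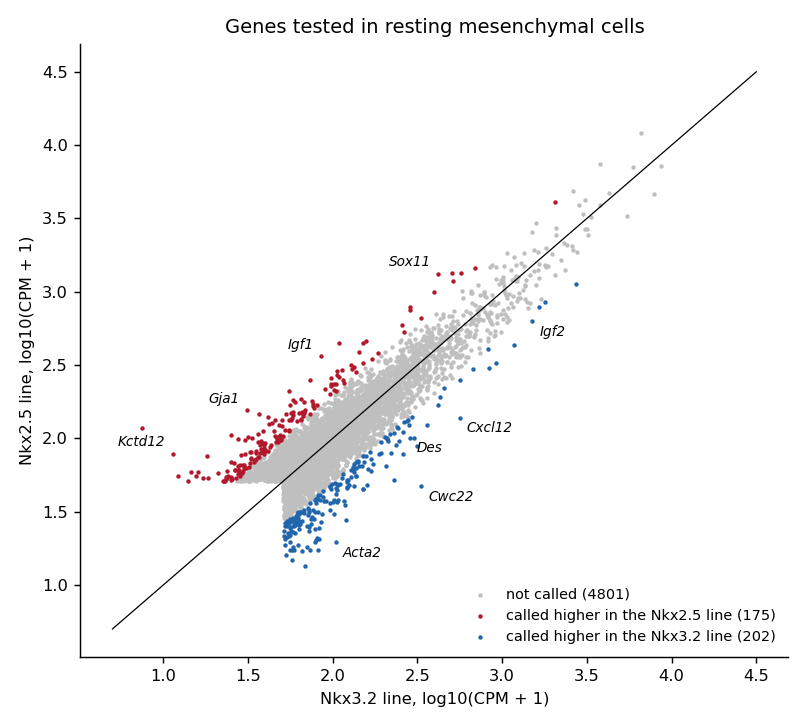
Level of each of the 5178 tested genes in the Nkx3.2 line (x axis) and the Nkx2.5 line (y axis), both as log10(CPM + 1) of the summed resting cells; the line marks equal levels. Genes called higher in the Nkx2.5 line are red, the 202 called higher in the Nkx3.2 line blue, and the 4801 not called grey.

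The 12 protein-coding genes with the widest ratios in the Nkx2.5 direction included a growth factor, Igf1. Igf1 (ENSMUSG00000020053, chromosome 10, 87858265 to 87937042 on GRCm38), the insulin-like growth factor that acts through Igf1r, stood at 318 CPM in plate 6A, 417 in 6B, 81.4 in 7A and 87.2 in 7B. Both Nkx2.5 plates were above both Nkx3.2 plates, and the line levels of 362 CPM (exact Poisson interval 358 to 366) and 83.8 CPM (81.9 to 85.6) were 4.32-fold apart. The 2 highest cells held 49.2% of all Igf1 counts of the Nkx3.2 line. Without the 2 highest cells of each line the log2 ratio went from 2.11 to 2.86. In 2 other settings Igf1 fell short of 2-fold and so was not called, with a log2 ratio of 0.40 among cells with 4500 to 5500 genes after thinning and 0.16 without cells at 100 CPM of Acta2 or Rgs5. The latter setting left only 11 Nkx2.5 and 22 Nkx3.2 cells.

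Gja1, which encodes the gap junction protein connexin 43, was at 141.6 and 170 CPM in the Nkx2.5 plates and at 39.2 and 16.8 CPM in the Nkx3.2 plates. The ratio was 5.12, and 2 cells held 30.4% of the Nkx2.5 counts and 42.3% of the Nkx3.2 counts. Among cells with 4500 to 5500 genes after thinning the log2 ratio of Gja1 was 0.02 in place of 2.36, no longer a call. Kctd12, an auxiliary subunit of GABA-B receptors, had the widest ratio of any protein-coding gene called in this direction, at 7.5, with 72.3 and 84.3 CPM against 5.92 and 16.9 CPM. It was found in 47 Nkx2.5 cells and 23 Nkx3.2 cells.

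Arglu1, a nuclear gene of transcription and splicing, had a count in all 213 cells, at 328 and 593 CPM in the Nkx2.5 plates and 114.9 and 96.3 CPM in the Nkx3.2 plates, and the median cell held 323 CPM against 92.8 CPM. The ratio was 4.16. Paxbp1, a nuclear protein that binds Pax3 and Pax7, was at 120, 178.9, 29.5 and 45.1 CPM in plates 6A, 6B, 7A and 7B, and Nmt2, an N-myristoyltransferase, at 151.01, 281, 49.8 and 60.3 CPM. The log2 ratio of Nmt2 was 0.32 in place of 1.95 without cells at 100 CPM of Acta2 or Rgs5, which left 11 and 22 cells.

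The other genes of the 12 widest ratios were Slc24a5 (a potassium-dependent sodium/calcium exchanger, 4.83-fold), Pcp4l1 (4.37-fold), the predicted gene Gm9747 (4.34-fold), Pdlim3 (an actinin-associated LIM protein, 4.28-fold), Abcd2 (a peroxisomal fatty acid transporter, 3.87-fold) and Emp1 (an epithelial membrane protein, 3.84-fold). Pcp4l1 was the least even of them, at 27.02 CPM in 6A and 134.2 in 6B, with 24.97 in 7A. Plate 6A of the Nkx2.5 line and plate 7A of the Nkx3.2 line thus nearly met, and without plate 6B its log2 ratio was 0.66 in place of 2.13, and among cells with 4500 to 5500 genes after thinning it was 0.07. Emp1 turned around in 1 setting and Abcd2 in another, which are given with the limits.

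Among the 12 genes of the Nkx3.2 direction the widest ratio belonged to a splicing factor. Cwc22 (ENSMUSG00000027014, chromosome 2, 77881159 to 77946375), a spliceosome component, was at 37.2 and 57.3 CPM in the Nkx2.5 plates and at 322 and 342 CPM in the Nkx3.2 plates, 7.13-fold. It was found in 99.1% of Nkx3.2 cells and 30.8% of Nkx2.5 cells. The gene lies in a segment that has near-identical copies in some mouse strains, so its counts are uncertain.

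Cxcl12 (ENSMUSG00000061353, chromosome 6, 117168535 to 117181367), the chemokine that acts through Cxcr4, was at 114.1 CPM in 6A, 166.8 in 6B, 537 in 7A and 594 in 7B. The plates of the lines did not overlap, the line levels were 137.7 CPM (exact Poisson interval 135.5 to 140) and 560 CPM (555 to 565), and the ratio was 4.07. Without cells at 100 CPM of Acta2 or Rgs5, with 11 and 22 cells left, its log2 ratio was -0.63 in place of -2.02, short of 2-fold. The chemokine was found in 49.04% of Nkx2.5 cells and 86.2% of Nkx3.2 cells, and the median cell held 0 and 403 CPM.

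Id3 (ENSMUSG00000007872, chromosome 4, 136143497 to 136145755), an inhibitor of basic helix-loop-helix factors and a common target of Bmp signalling, was at 58.2 and 41.7 CPM in the Nkx2.5 plates and 268 and 170 CPM in the Nkx3.2 plates, 4.49-fold. Gdf6, a ligand of the Bmp family, was at 13.2, 14.4, 54.7 and 59.1 CPM in plates 6A, 6B, 7A and 7B, 4.1-fold. Fn1, which encodes the matrix protein fibronectin, was at 9.71, 29.5, 86.4 and 63.6 CPM, 4.15-fold. All of these were lower in each Nkx2.5 plate than in either Nkx3.2 plate, which the call itself required.

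Acta2, the smooth muscle actin, rested on few cells. It was at 18.6 CPM in each Nkx2.5 plate, 147.2 CPM in 7A and 38.3 CPM in 7B, and 2 cells held 77.01% of the Nkx3.2 counts. Its ratio was 5.54, its log2 ratio went from -2.47 to -1.20 without the 2 highest cells of each line, and among cells with like numbers of genes it was 0.31, in the other direction. Acta2 was at 0 in the median cell of both lines.

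The remaining genes of the 12 were Lrp10 (a receptor of the LDL receptor family, 5.41-fold), Trappc12 (a subunit of a vesicle tethering complex, 4.96-fold), Pcdhgc3 (a gamma protocadherin, 4.45-fold), Ints5 (an Integrator subunit, 4.45-fold), Arvcf (a catenin of the p120 group, 4.21-fold) and Rhog (a small GTPase, 4.07-fold). The 3′ exons of Pcdhgc3 are shared with the other gamma protocadherins, so its counts are uncertain. Each of these 6 was found in 54.1 to 72.5% of Nkx3.2 cells and in 12.5 to 18.3% of Nkx2.5 cells. Rhog and Pcdhgc3 also differed within the Nkx2.5 line, at 29.5 and 42.5 CPM in 6A and 6.56 and 6.97 CPM in 6B.

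**Figure D3:**
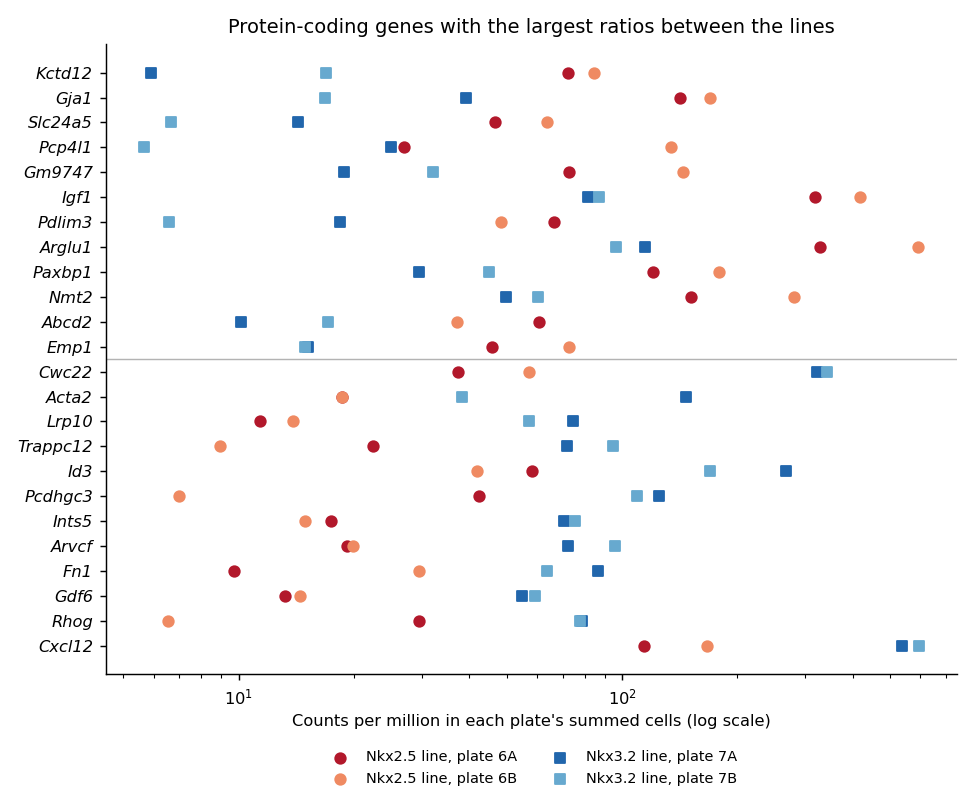
Level of the 12 protein-coding genes with the widest ratio in each direction, in CPM of the summed resting cells of each plate on a log scale; circles are Nkx2.5 plates and squares Nkx3.2 plates. Genes above the grey line were called higher in the Nkx2.5 line and those below it higher in the Nkx3.2 line, and in all 24 the plates of the lines did not overlap, as the call requires.

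Nkx factors are known to bind DNA with a core of AAGTG. The promoters of these genes (250 bases before to 50 after the start, from RefSeq on GRCm38.p6) were searched for AAGTG and for the longer TNAAGTG, which contains it, on both strands. Of the 12 genes higher in the Nkx2.5 line 9 had a promoter in the table, of which 2 held AAGTG and 1 TNAAGTG. Of the 12 higher in the Nkx3.2 line 8 did, of which 3 held AAGTG and 0 TNAAGTG. Over all 27025 promoters the shares were 46.5% and 11.47%, over the 4100 promoters of tested genes 43.95% and 8.49%, and over those of called genes 33.8% and 6.21% in the Nkx2.5 direction and 36.8% and 6.45% in the Nkx3.2 direction. A match is only a description of the letters, and no match says only that these letters are not in the window. The promoters with the most matches in each direction were those of Nmt2 and Rhog, and they are printed so that the matches can be seen, as the 250 bases before the start with AAGTG, or its reverse complement CACTT, in capitals. They lie at chr2:3283962-3284211 (plus strand) and chr7:102250119-102250368 (minus strand) and hold 3 and 2 matches.
Nmt2: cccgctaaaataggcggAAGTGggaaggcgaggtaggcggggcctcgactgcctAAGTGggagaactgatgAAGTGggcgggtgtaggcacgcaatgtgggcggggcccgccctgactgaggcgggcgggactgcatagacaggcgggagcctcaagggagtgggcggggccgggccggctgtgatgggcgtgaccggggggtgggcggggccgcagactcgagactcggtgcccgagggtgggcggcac
Rhog: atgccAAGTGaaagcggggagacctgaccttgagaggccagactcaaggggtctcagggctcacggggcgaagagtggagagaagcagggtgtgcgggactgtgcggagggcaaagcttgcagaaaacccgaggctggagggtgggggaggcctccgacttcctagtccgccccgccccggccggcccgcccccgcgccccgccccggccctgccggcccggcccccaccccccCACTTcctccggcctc

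The driver genes themselves were low in both lines. Nkx2-5 (chromosome 17, 26838664 to 26845009) was at 14.5 CPM in 6A, 0.898 in 6B, 9.69 in 7A and 10.6 in 7B, and Nkx3-2 (chromosome 5, 41761483 to 41764501) at 26.9, 25.7, 17.4 and 34.2 CPM. Both genes were below the 50 CPM floor, and the plates of the lines overlapped for each. Nkx2-5 was found in 20.2% of Nkx2.5 cells (interval 12.96 to 29.2%) and 27.5% of Nkx3.2 cells (19.4 to 36.9%), and Nkx3-2 in 41.3% (31.8 to 51.4%) and 53.2% (43.4 to 62.8%). Most cells of the Nkx2.5 lineage thus had no Nkx2-5 count at this stage. Of 11 genes listed as drivers and factors of the splenopancreatic mesenchyme, 5 reached the floor and 1 was called: Tcf21, a basic helix-loop-helix factor of visceral mesenchyme, at 100.8, 88.5, 253 and 237 CPM in the 4 plates and 2.59-fold higher in the Nkx3.2 line. Hoxa5, a Hox factor, was at 81.1 and 92.97 CPM over the lines and was not called.

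The insulin-like growth factor system split by ligand. Of 15 genes with counts, 8 were tested, 1 was called higher in the Nkx2.5 line and 2 in the Nkx3.2 line (beside 3.38% and 3.9% of all tested genes), with a median log2 ratio of -0.43. Igf1 was higher in the Nkx2.5 line, as given above. Igf2, the paternally expressed ligand, was at 678 CPM in 6A, 570 in 6B, 1364 in 7A and 1706 in 7B, 2.38-fold higher in the Nkx3.2 line, and every cell of both lines had it. Igfbp5, a binding protein of both ligands, was at 73.4, 51.5, 172.8 and 250 CPM, 3.21-fold higher in the Nkx3.2 line. Igfbp4, another binding protein, was at 506 and 901 CPM over the lines, 1.78-fold and so not called, and the receptor Igf2r was at 403 and 324 CPM. The log2 ratio of Igf2 stayed below 0 in all 20 alternatives run on single genes, between -2.12 and -0.96, and that of Igf1 above 0, between 0.16 and 2.86, with the 2 settings under 2-fold given above.

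Among Bmp genes, the Id targets were higher in the Nkx3.2 line and a receptor was higher in the Nkx2.5 line. Of 40 genes of the Bmp and Tgf-beta family 13 were tested, 4 were called in the Nkx3.2 direction and 1 in the other, beside a median log2 ratio of 0.13. Id1 was at 80.2, 37.5, 164.8 and 153.1 CPM in plates 6A, 6B, 7A and 7B, 2.62-fold higher in the Nkx3.2 line. Id2 was at 99.8, 100.8, 338 and 245 CPM, 3-fold higher there. Together with Id3, 3 Id genes were thus called in the same direction (Id4 was below the floor): Id1 was found in 39.4% of Nkx2.5 cells and 85.3% of Nkx3.2 cells and Id2 in 42.3% and 78.9%. The receptor Bmpr2 went the other way, at 77.4 and 29.4 CPM over the lines, while Fstl1, a secreted follistatin-like protein, at 1012 and 652 CPM, and the procollagen protease Bmp1, at 105.5 and 105.4 CPM, were not called.

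Of 32 Pdgf, Vegf, Notch and chemokine genes 12 were tested, 2 were called higher in the Nkx2.5 line and 3 in the Nkx3.2 line, with a median log2 ratio of 0.39. The receptor Notch2 was at 302 CPM in 6A, 628 in 6B, 143.6 in 7A and 157.4 in 7B, and its ligand Jag1 at 254, 338, 130 and 86.4 CPM. The ratios were 3 and 2.59, every cell had Notch2, and 85.6% and 78.9% of cells had Jag1. Another receptor, Notch3, was not called, at 59, 47.1, 87.2 and 91.3 CPM in the 4 plates. On the Nkx3.2 side were Cxcl12, Pdgfrb (the receptor of perivascular cells, 130 and 275 CPM) and Nrp1 (a co-receptor for Vegf and semaphorins, 62.1 and 136.3 CPM). The growth factors Ptn, at 1838 and 1351 CPM, and Mdk, at 1103 and 722 CPM, were not called.

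Guidance genes, whose products steer axons and migrating cells, had 20 of 76 members tested, 2 called in the Nkx2.5 direction and 4 in the Nkx3.2 direction, with a median log2 ratio of 0.03. Epha7 was at 162.6 and 132.7 CPM against 57.7 and 57.5 CPM, and Plxna2 at 51.8 CPM against 24.4 CPM over the lines. Ephb4 was 2.14-fold higher in the Nkx3.2 line, and Plxna1 was at 32.3 and 70.5 CPM over the lines. Members of the Eph receptors and of the plexins were thus found on both sides. Epha4, at 487 and 384 CPM, and Gap43, a growth cone protein at 558 and 307 CPM, were not called.

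Of 477 transcription factors 94 were tested, 8 were called higher in the Nkx2.5 line and 9 in the Nkx3.2 line, a share of 18.1% of those tested beside 7.28% over all genes, and the median log2 ratio was -0.05. The calls in the Nkx3.2 direction include Id1, Id2, Id3, Rara and Tcf21, which other lists here also count. The share is thus not separate from those lists. Sox11, a SoxC factor of progenitors and mesenchyme, was at 1295 CPM in 6A, 1375 in 6B, 457 in 7A and 360 in 7B, 3.19-fold. Sox11 was found in 99.04% and 99.1% of the cells, and the median cell held 1137 CPM against 353 CPM. Snai1, a repressor known from epithelial-mesenchymal transition, was at 31.6, 12.9, 57.04 and 68.9 CPM, 2.66-fold higher in the Nkx3.2 line. The zinc finger genes Peg3, at 2432 and 3203 CPM, and Plagl1, at 1526 and 1789 CPM, were not called. Of 39 Hox genes 3 were tested and 0 called, with Hoxb2 at 97.4 and 78.5 CPM.

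Among contractile and perivascular genes, desmin was higher in the Nkx3.2 line. Of 18 listed genes 10 were tested, 3 were called in that direction and 0 in the other (30% of those tested, beside 3.9% of all tested genes in that direction), and the median log2 ratio was -0.65. The tested genes of this list had a median GC content of 54.1%, beside 48.9% over all tested genes. Des, the muscle intermediate filament desmin, was at 115.6 CPM in 6A, 80.5 in 6B, 286 in 7A and 279 in 7B, 2.83-fold, and was found in 50% of Nkx2.5 cells and 87.2% of Nkx3.2 cells. Pdgfrb, which is also on the Pdgf list and on the list of mesenchymal markers, and Acta2, which rested on few cells, were also called. Rgs5, a regulator of G protein signalling in pericytes, was at 532 and 359 CPM without a call, and Tpm1, a tropomyosin, was at 333 and 473 CPM. Rgs5 was found in 94.2% and 87.2% of the cells.

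Matrix genes differed member by member. Of 58 collagen and laminin genes 21 were tested, 1 was called higher in the Nkx2.5 line and 4 in the Nkx3.2 line (median log2 ratio -0.14). Col23a1, a transmembrane collagen, was at 106.9 and 83.2 CPM against 27.2 and 32.4 CPM. Col8a1, a short-chain collagen, was at 45.1 and 9.48 CPM against 73.8 and 65.04 CPM, and Col9a2, at 47.5 and 19.98 CPM against 73.3 and 85.6 CPM. The fibrillar chains Col1a1 (1293 and 2038 CPM over the lines) and Col3a1 (1499 and 1340 CPM) were not called.

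Of 49 other matrix genes 29 were tested, 2 were called higher in the Nkx2.5 line and 4 in the Nkx3.2 line (median log2 ratio -0.34). Bgn, the proteoglycan biglycan, was at 67.1, 91.5, 228 and 206 CPM in the 4 plates, and Tnc, which encodes tenascin C, at 24.4, 5.66, 48.5 and 88.9 CPM, both higher in the Nkx3.2 line with Fn1. Timp3, an inhibitor of metalloproteinases, was at 131.2, 230, 68.7 and 64.4 CPM, higher in the Nkx2.5 line. Gpc3, a glypican at 3240 and 3346 CPM, and the microfibril gene Mfap2, at 1220 and 924 CPM, were not called. Of 26 integrins 4 were tested and 0 called, with Itgb1 at 365 and 386 CPM.

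In the Hedgehog pathway 6 of 15 genes were tested and 1 called, the inhibitor Sufu, 2.29-fold higher in the Nkx3.2 line, and the median log2 ratio was -0.75. The tested Hedgehog genes had a median GC content of 56.7%, beside 48.9% over all tested genes. The co-receptors Gas1, at 145.7 and 250 CPM, and Boc, at 84.1 and 139.3 CPM, were not called. Among 18 retinoic acid genes 4 were tested and 1 called, the receptor Rara, at 31.7 and 75.4 CPM over the lines, with a median log2 ratio of -0.28. Of 35 Fgf genes 6 were tested, with the feedback inhibitor Spry2 2.45-fold higher in the Nkx2.5 line and the phosphatase Dusp6 2.05-fold higher in the Nkx3.2 line, and a median of -0.16. Both are known targets of Fgf signalling, and they were called in opposite directions. Neither call was firm, with Dusp6 under 2-fold in 7 of 20 alternatives and Spry2 in 4. Of 34 Wnt ligands and receptors 5 were tested and 0 called (median -0.37), with Wnt5a at 199 and 311 CPM. Of 21 secreted Wnt modulators and targets 5 were tested and 1 called (median 0.35), Znrf3, a ubiquitin ligase that removes Wnt receptors, at 121.6 and 47.5 CPM.

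**Figure D4:**
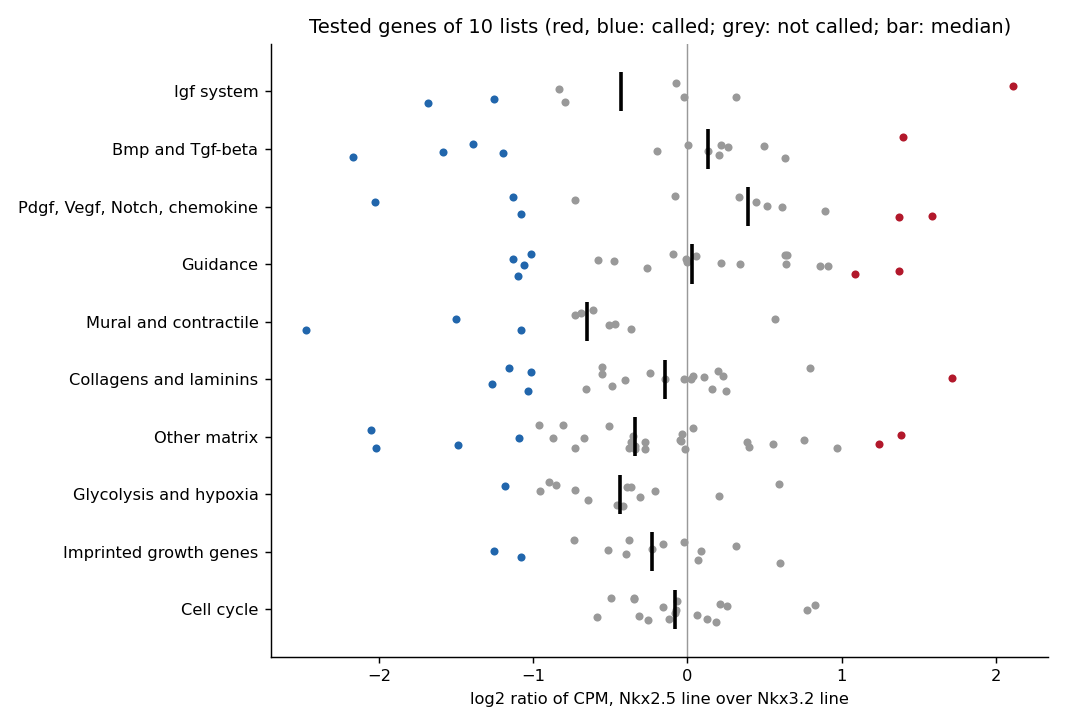
Log2 ratio of CPM, Nkx2.5 line over Nkx3.2 line, of every tested gene in 10 of the gene lists; each point is a gene, red or blue where called and grey where not, and the black bar is the list's median. The contractile list had its median at -0.65 and the glycolysis list at -0.44, beside 0.03 over all tested genes, and the Igf system holds Igf1 at 2.11 and Igfbp5 at -1.68.

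Of 16 imprinted growth genes with counts, 13 were tested, 2 were called in the Nkx3.2 direction (15.4%, beside 3.9% of all tested genes) and 0 in the other, and the median log2 ratio was -0.23. The called genes were Igf2 and Dlk1, a Notch-related membrane protein of progenitors, at 98.5 and 208 CPM. Mest was at 3267 and 5446 CPM, a ratio of 1.67. Of 23 glycolysis and hypoxia genes 14 were tested and 1 called, 7.14% beside 7.28% over all tested genes, with a median of -0.44. It was Ldha, lactate dehydrogenase A, at 393, 180, 693 and 647 CPM in the 4 plates, while the enzymes Eno1, at 1404 and 1622 CPM, and Pkm, at 936 and 1157 CPM, were not called. The median GC content of the tested glycolysis genes was 52.7%, and that of all tested genes 48.9%.

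Of 25 immediate early and heat shock genes 11 were tested and 1 called, Dusp1, a phosphatase induced by stress and growth factors, at 206, 140, 53.6 and 66.7 CPM, 3-fold higher in the Nkx2.5 line. Dusp1 was found in 50.96% of Nkx2.5 cells and 54.1% of Nkx3.2 cells. The median cell held 1.25 and 5.38 CPM, so the typical cell did not follow the summed level. The chaperones Hspa8 and Hspa5 were not called, and the list's median was 0.18. Of 30 cell cycle genes 18 were tested and 0 called, with a median of -0.08. The gate limited Top2a in both lines, so this count is not independent of the gate. The cyclins Ccnd2, at 950 and 869 CPM, and Ccnd3, at 768 and 1081 CPM, were not called.

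The study named groups of mesenchymal genes on these same cells, so counts over them are no independent evidence. Of the 3 M-I genes all were tested and Igf1 was called. Itm2a, a membrane protein, was at 1847 and 1070 CPM, and Smoc2, a matricellular protein, at 979 and 666 CPM, both without a call. Of the 11 M-II genes all were tested and Jag1 was called, with a median log2 ratio of 0.34. Of 8 M-III genes 5 were tested, and Igf1 and Col14a1, a fibril-associated collagen, were called in opposite directions. Col14a1 was at 55.99 and 114.4 CPM over the lines. The LIM homeobox gene Isl1 was at 110, 52.4, 77.95 and 48.2 CPM in the 4 plates, which overlapped, and Flrt3 was at 142.2 and 91.9 CPM. Of 5 M-SpP genes 2 were tested and both called, in opposite directions. Kazald1, a secreted protein related to Igf binding proteins, was at 276, 167.5, 82.3 and 116.4 CPM, and Npnt, which encodes the integrin ligand nephronectin, at 81.8, 16.7, 89.2 and 146.4 CPM. Kazald1 was found in 47.1% of Nkx2.5 cells and 55.05% of Nkx3.2 cells, the other way from its level. For Npnt plate 6A lay close to plate 7A, and the ratio of 2.13 was carried by 6B and 7B.

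The share of cells with a count is given beside the level as a description only, since these genes were chosen by their levels in the same cells and the lines differed in genes per cell. In 23 of the 24 genes with the widest ratios the share of cells with at least 1 count went the way of the level, the exception being Arglu1, which every cell had, and it did so in all 24 with 20 CPM required or after thinning. For Cxcl12 the share after thinning was 46.2% of Nkx2.5 cells and 80.7% of Nkx3.2 cells, for Id3 23.1% and 75.2%, and for Igf1 47.1% and 19.3%. Arglu1 was in 98.2% of the thinned Nkx3.2 cells and in all the others, and Sox11 in 98.1% and 99.1% of thinned cells. For Acta2 11.54% and 22.02% of thinned cells had a count.

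**Figure D5:**
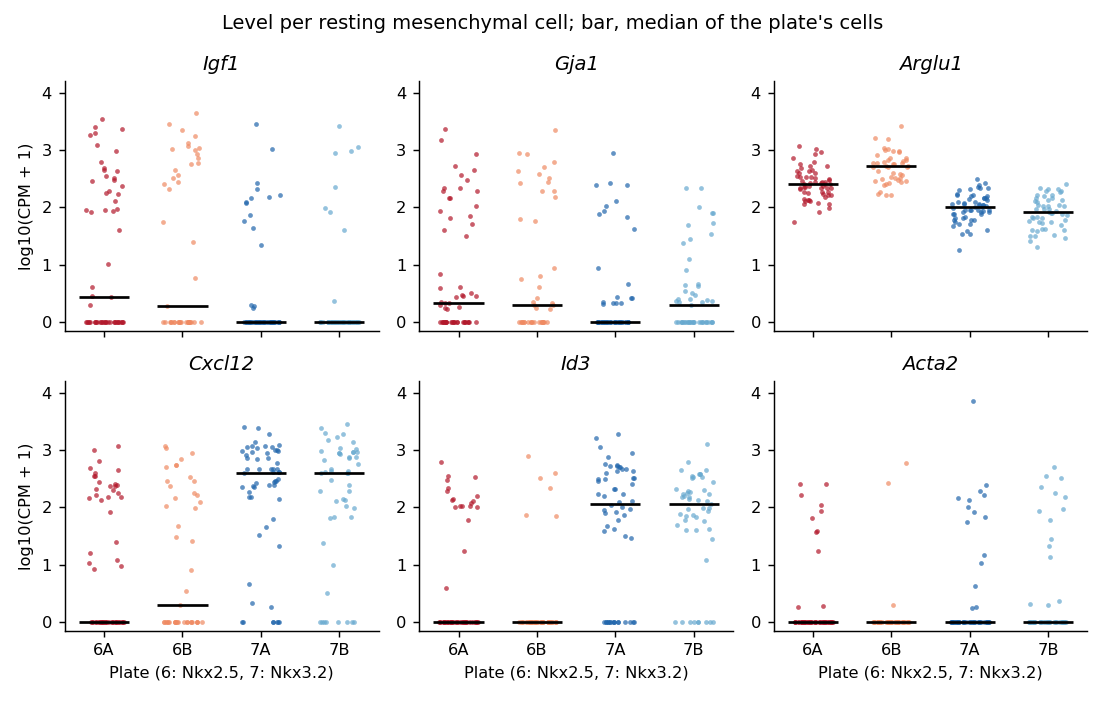
Level of 6 genes in each of the 213 resting cells by plate, as log10(CPM + 1), with a bar at the median of the plate's cells; cells without a count lie at 0. Arglu1 was found in every cell, with plate medians of 256 and 515 CPM in 6A and 6B and 100.3 and 81.7 CPM in 7A and 7B, Cxcl12 and Id3 were absent from the median cell of plate 6A and present in that of 7A and 7B, and a single cell of 7A reached 7194 CPM of Acta2.

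The gate left out the mesenchymal cells at 50 CPM or more of Top2a, called dividing here, 39 of the Nkx2.5 line and 54 of the Nkx3.2 line. They come from the same plates and possibly the same embryos. Of the genes called higher in the Nkx2.5 line all but 14 were also higher in its dividing cells, and 82 (46.9%) were so at least 2-fold. Of the 202 called in the Nkx3.2 direction all but 12 were also higher in its dividing cells, and 53.5% were so at least 2-fold. Over all tested genes 47.2% were higher in dividing Nkx2.5 cells at any size, and 3.86% and 5.95% reached 2-fold in those directions. Igf1 was at 328 and 49.1 CPM in the dividing cells of the lines, and Cxcl12 at 75.4 and 193.5 CPM. Acta2, Fn1 and Gdf6 did not keep their direction, with Acta2 at 30.8 and 16.3 CPM, Fn1 at 106.4 and 69.7 CPM and Gdf6 at a log2 ratio of 0.08, and nor did Abcd2, at 23.1 and 35.8 CPM.

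The same gate took 45 cells of the Prox1-GFP line. Igf1 was at 947 CPM there, above both lineage lines, and Cxcl12 at 263 CPM, between them. Of the 12 genes higher in the Nkx2.5 line 8 lay between the lines in these cells, 2 above and 2 below, and of the 12 higher in the Nkx3.2 line 9 lay between and 3 above. Emp1 was at 0.354 CPM, below both. The genes of both directions were chosen as the widest apart between the lineage lines, which favours levels between them. These counts are therefore a description, with no share over all tested genes beside them.

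Both Cre alleles sit in their driver genes, so genes near those loci were counted. Of the tested genes within 10 Mb of Nkx2-5 on chromosome 17, 3 were called higher in the Nkx2.5 line and 11 in the Nkx3.2 line, 11.48% of them beside 7.28% over all genes. Dusp1, at 26505590 to 26562128, is among them. Within 10 Mb of Nkx3-2 on chromosome 5, 42 genes were tested and 2 called, both higher in the Nkx2.5 line (4.76%). On the X chromosome 3 genes were called in the Nkx2.5 direction and 8 in the Nkx3.2 direction, 7.01% of those tested there.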

How the data were processed

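Each column of the Smart-seq2 tables carries a library number, through which the labels give its line, plate and well (104 Nkx2.5 and 109 Nkx3.2 resting cells). The authors deposited estimated counts per gene and cell, made with Trim Galore 0.6.5, kallisto and tximport on GRCm38 and not normalized. Fractional values make up 36.1% of those above 0, and none was rounded here. The annotation release is not given in the sources used here. Of 36658 identifiers 35866 have a symbol in GENCODE M21, which gave names and positions. PCR copies are counted, since there are no molecular identifiers.

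Counts were summed over the cells of a plate or line and scaled to 1000000 (Python with numpy 2.4.6, pandas 2.3.3 and scipy 1.17.1). A gene was called at 2-fold or more, 50 CPM or more in the higher line and the same direction in 4 plate pairs. Y-linked genes and identifiers without a symbol were left out. A gene at 0 in a line was set at 3 counts. With 1 sample per line no p-value was computed. Thinning drew 100000 counts per cell. No doublet caller was run on cells sorted 1 per well.

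Named genes were the 12 protein-coding genes with the widest ratio in each direction, the driver and gate genes, and from each list up to 4 called and up to 2 well expressed uncalled genes, of which some are not reported here. The members and lists were chosen with earlier results of these data known. Processing alternatives, among them TMM factors from edgeR 4.0.16 in R 4.3.3, are given with the limits. The GC centring and the restriction to cells of like gene number were chosen after seeing the data.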

Additional observations from a re-analysis of the deposited data

How the results depend on the processing

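No paired analysis was possible because the replicate numbers only name cells and no test was run. The numbers of genes called higher in the Nkx2.5 and in the Nkx3.2 line were within 1.5 times of those reported under thinning, cell means, TMM and median-of-ratios factors, both cell filters, Top2a below 10 CPM, Vim at 300 CPM and GC centring. They were 475 and 694 with a floor of 10 CPM, 1460 and 2179 with no floor, 627 and 660 at 1.5-fold, and 285 and 319 without S-phase cells (94 cells left of 213). In that last setting 58.9% and 68.8% of the genes reported were called again. The numbers also moved when plates were left out. They were 352 and 436 without plate 6A and 237 and 313 without plate 7A. Leaving out the 2 highest cells of each gene moved the share of calls in the Nkx2.5 direction from 46.4% to 32.8%. Leaving out cells at 100 CPM of Acta2 or Rgs5 left 11 and 22 cells and gave 592 and 934 calls. Of cells with at least 10 Y-linked counts 90 and 5 were left (712 and 526 calls), and of cells with fewer 14 Nkx2.5 cells and all but 5 of the Nkx3.2 cells (419 and 724). Among cells with 4500 to 5500 genes after thinning, 37 and 30, 274 and 260 genes were called, 33.1% and 39.1% of the genes reported were called again, and 9 and 7 of them changed sign. The causes were not tested.

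Of 58 named genes called, 47 kept their sign in all 20 alternatives. The log2 ratio changed sign without cells at 100 CPM of Acta2 or Rgs5 for Emp1 (-3.89), Col14a1 (0.044), Kazald1 (-0.57), Npnt (0.063), Dusp6 (1.01) and Bmpr2 (-0.23), among cells with under 10 Y-linked counts for Abcd2 (-5.77), Col14a1 (0.52) and Kazald1 (-0.16), among cells with 10 or more for Acta2 (5.04), Npnt (0.90), Plxna1 (0.40), Ephb4 (1.33) and Col8a1 (5.69), and among cells of like gene number for Acta2 (0.31). Of the 24 genes with the widest ratios, those under 2-fold with the same sign were Igf1 (0.16), Nmt2 (0.32), Acta2 (-0.59) and Cxcl12 (-0.63) without cells at 100 CPM of Acta2 or Rgs5, Gja1 (0.02), Pcp4l1 (0.07), Igf1 (0.40), Pdlim3 (0.73) and Pcdhgc3 (-0.86) among cells of like gene number, Abcd2 (0.43), Pdlim3 (0.52) and Gdf6 (-0.27) among cells with 10 or more Y-linked counts, and Pcp4l1 (0.66) without plate 6B. The first of these settings left out cells by their Acta2 level, so its value for Acta2 is no check on that gene. Calls outside those 24 genes were also under 2-fold, in either direction, in some of the 20 alternatives. Dusp6 was so in 7, Npnt in 6, Kazald1, Col14a1 and Bmpr2 in 5 each, Spry2 in 4 and Snai1 in 3. Id2, Jag1 and Znrf3 were so in 2 each, and Tcf21 and Sox11 in 0. What limits the comparison is 1 sample per line, with sex, genes per cell and GC content moving with the line.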
